A study of Mus musculus with 15 samples.

Results

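The proteasome subunit genes were taken from a microarray series on gonadal white fat of wild-type and Sfrp5 knockout mice. A gene was included when a probe set of the array carried exactly 1 symbol and that symbol began with Psma, Psmb, Psmc or Psmd followed by a number. Where a gene had several such probe sets, the brightest over the 15 arrays stood for it. This gave 40 genes, represented by 46 probe sets, of 19938 named genes and 35557 probe sets in all. They comprise 16 genes of the 20S core, 3 genes of the immunoproteasome (Psmb8, Psmb9 and Psmb10), 20 genes of the 19S cap and 1 gene, Psmc3ip, that is no subunit and entered by its spelling alone. The choice used names and brightness and did not use the difference between genotypes.

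Sfrp5 encodes a secreted antagonist of Wnt ligands made by fat tissue. All 15 mice were C57BL6/J males given a high-fat diet for 8 weeks from 4 weeks of age, and the fat was taken at 12 weeks. The wild-type group had 7 mice and the knockout group had 8 mice whose Sfrp5 gene carries the Q27Stop allele in every cell, each with an array of its own. Both groups were on the high-fat diet, so no lean animal enters any comparison. Values are log2 expression as the authors deposited them, and a difference is the knockout mean minus the wild-type mean on that scale.

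The 26S proteasome degrades proteins that carry ubiquitin chains. Its 20S core is a barrel of stacked rings, with alpha subunits (Psma genes) outside and beta subunits (Psmb genes) inside, and the proteolytic sites lie in the beta subunits Psmb5, Psmb6 and Psmb7. The 19S cap recognises and unfolds the substrate with a ring of ATPases (Psmc genes) and a set of non-ATPase subunits (Psmd genes). Under interferon gamma, and constantly in many immune cells, the immunosubunits Psmb8, Psmb9 and Psmb10 take the places of Psmb5, Psmb6 and Psmb7 and alter which peptides are made for MHC class I molecules. The transcription factor Nfe2l1 raises subunit genes when proteasome capacity falls short, a response known to matter in brown fat.

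The arrays had medians of 6.99 to 7.07, and their pairwise correlations were 0.963 to 0.987. Sfrp5 itself averaged 7.92 ± 0.24 in the 7 wild-type mice and 6.69 ± 0.40 in the 8 knockout mice (SD), with ranges that did not overlap, and limma's adjusted p was 0.0200. Its difference was -1.23 and stayed between -1.29 and -1.13 with 1 mouse left out, but limma's adjusted p was 0.0501 to 0.067 without wild-type mouse 2, 3, 4 or 5 or knockout mouse 2, 5 or 8. The 7 adipocyte markers were among the brightest named genes, at percentiles from 96.3 to 99.9. Other cell types varied between mice. The mean of 13 macrophage markers ran from 8.77 to 9.36 in wild type (highest in mouse 2) and from 8.62 to 9.91 in knockout (highest in mouse 8). The mean of 6 epididymis markers, a sign of neighbouring tissue in the dissection, ran from 5.92 to 7.16 in wild type (highest in mouse 4) and from 5.80 to 11.66 in knockout (highest in mouse 2). Wild-type mouse 4 was the highest of its group only for Adam7, at 12.52 against a wild-type median of 6.54. In these bulk samples fewer cells of a type and less RNA per cell cannot be told apart. The wild-type arrays hold positions 1 to 7 of the deposited table and the knockout arrays positions 8 to 15, and an order of handling, if it was the same, cannot be told apart from genotype.

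Proteasome genes were among the brighter genes of this tissue and differed little between genotypes. No member passed limma's adjusted p of 0.05 (0 of 40, against 0.0337% of all probe sets and 0.01% of named genes), and none did at 0.1. Adjusted p-values ran from 0.294 to 0.994. In 34 of 40 genes the difference was smaller than 0.1, the largest was 0.18 in size, and no member's 95% interval reached beyond 1.24-fold in either direction. At an unadjusted p under 0.05 there were 5 of 40 members (12.5%), against 9.97% of all probe sets and 6.69% of named genes. Of these, 4 were higher in knockout (Psmb6, Psma3, Psma5 and Psmb1), where 4.94% of all probe sets and 2.3% of named genes were, and 1 was lower (Psmd10), where 5.03% and 4.39% were. This split depends on the scaling: after the arrays were quantile normalised again, 0 members were higher at that p and 4 were lower (Psmd10, Psmb7, Psmd1 and Psmc1). In the deposited values 144 of the 1994 brightest named genes, which hold 29 members, were higher at that p and 47 were lower. No proteasome gene lies on the chromosome of Sfrp5. No member had ranges without overlap, which 0.217% of all probe sets and 0.11% of named genes had.

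**Figure D1:**
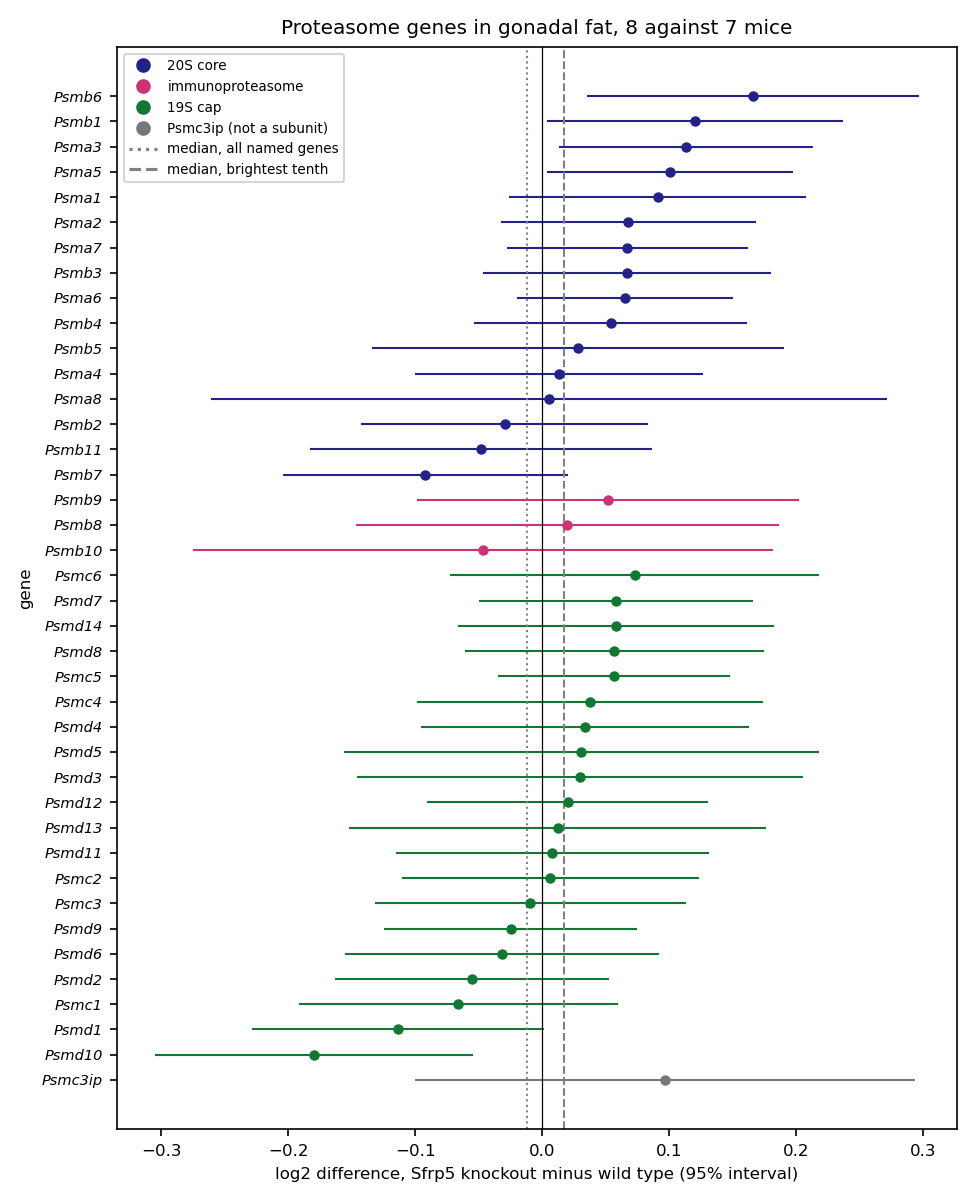
Log2 difference between knockout (n = 8) and wild type (n = 7) for the 40 genes, by group, with the 95% interval from limma as a bar. Psmb6 (0.17) lies farthest to the right and Psmd10 (-0.18) farthest to the left, and most of the other points lie within 0.1 of 0.

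The groups differed in how their genes were placed. In the 20S core 13 of 16 genes had a positive difference, with a median of 0.066. In the 19S cap 13 of 20 did, with a median of 0.016, and in the immunoproteasome 2 of 3 did, with a median of 0.020. Over all named genes 44.8% had a positive difference and the median was -0.012. Brightness moved with this share, because among the 1994 brightest named genes, which hold 29 members (13 of the core and 15 of the cap), 57.6% were positive and the median was 0.017. In the deposited values the cap's median therefore stood at that of these bright genes, and the core's stood above it, a gap that was not tested. When the arrays were quantile normalised again, the core had 8 of 16 genes positive and a median of 0.0022, while the 1994 brightest genes had a median of -0.03 with 37.0% positive. The core median kept its sign there and was close to 0, and it again stood above that of the brightest genes. The cap then had 9 of 20 genes positive and a median of -0.013, which also stood above that of the brightest genes.

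**Figure D2:**
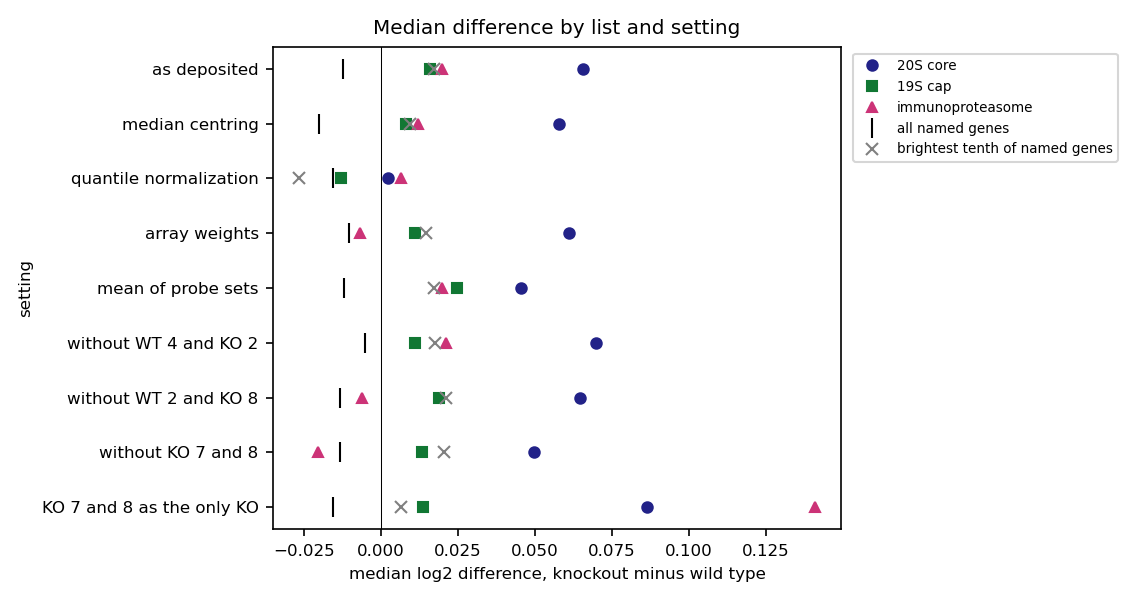
Median log2 difference of the 20S core, the 19S cap, the immunoproteasome, all named genes and the 1994 brightest named genes under each setting. The core median lies between 0.0453 and 0.0865 in the settings drawn other than quantile normalisation, where it is 0.0022, and the cap median stays close to 0.

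The alpha ring gates entry to the barrel, and all 7 of its widely expressed genes had a positive difference, from 0.01 (Psma4) to 0.11 (Psma3), with a median of 0.07. After quantile normalisation 4 of the 7 were positive and the median was 0.029, with Psma3 at 0.033, Psma5 at 0.049 and Psma1 at 0.037. Psma3, the brightest core gene on the array, ran from 12.31 (median 12.38) to 12.42 in wild type and from 12.36 (median 12.48) to 12.60 in knockout. Its difference was 0.11 (SE 0.05), with limma's adjusted p at 0.436. The knockout values were mostly above the wild-type ones, 6 of 8 exceeding the highest wild-type value, yet the ranges overlapped. The other probe sets of Psma3 gave 0.11 and 0.14. Psma5 ran from 11.17 (median 11.25) to 11.28 in wild type and from 11.27 (median 11.31) to 11.50 in knockout, a difference of 0.10 (SE 0.05, limma's adjusted p = 0.480). All but 1 knockout mouse lay above the highest wild-type mouse on this probe set. A dimmer second probe set of Psma5 did not follow, with a difference of -0.03 (SE 0.05). Psma1 differed by 0.09 (SE 0.06) with an adjusted p of 0.644 in limma, and its ranges overlapped.

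The beta ring of 7 genes was less even, with 5 positive and 2 negative differences and a median of 0.05, and with 3 positive and a median of -0.019 after quantile normalisation. Psmb1, a beta subunit without a proteolytic site, ran from 10.46 (median 10.58) to 10.71 in wild type and from 10.59 (median 10.71) to 10.90 in knockout. The difference was 0.12 (SE 0.05, limma's adjusted p = 0.481), and 4 of 8 knockout mice exceeded the wild-type maximum. The subunits that bear the proteolytic sites did not share a direction. Psmb6, which carries the caspase-like site, ran from 11.16 (median 11.31) to 11.47 in wild type and from 11.36 (median 11.44) to 11.70 in knockout. It had the largest positive difference of the members, 0.17 (SE 0.06, limma's adjusted p = 0.363). All 8 knockout mice lay above the wild-type mean and 3 above the wild-type maximum, so the groups overlapped in part. Psmb7, with the trypsin-like site, ran from 10.98 (median 11.05) to 11.15 in wild type and from 10.80 (median 10.98) to 11.10 in knockout. Its difference was -0.09 (SE 0.05, limma's adjusted p = 0.612), with 7 of 8 knockout mice below the wild-type mean. Psmb5, with the chymotrypsin-like site, ran from 10.61 (median 11.01) to 11.06 in wild type and from 10.76 (median 10.97) to 11.15 in knockout. The difference was 0.03 (SE 0.08, limma's adjusted p = 0.943), and it became -0.02 after quantile normalisation and -0.03 without wild-type mouse 7, the lowest array.

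The tissue-restricted genes of the core were dim. Psma8, known as a testis subunit, averaged 6.35 ± 0.22 in the 7 wild-type and 6.36 ± 0.28 in the 8 knockout mice (SD), and was the dimmest core gene. Psmb11, known as the subunit of the thymus cortex, was at 6.42 ± 0.12 and 6.37 ± 0.10. Neither gene's groups separated.

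**Figure D3:**
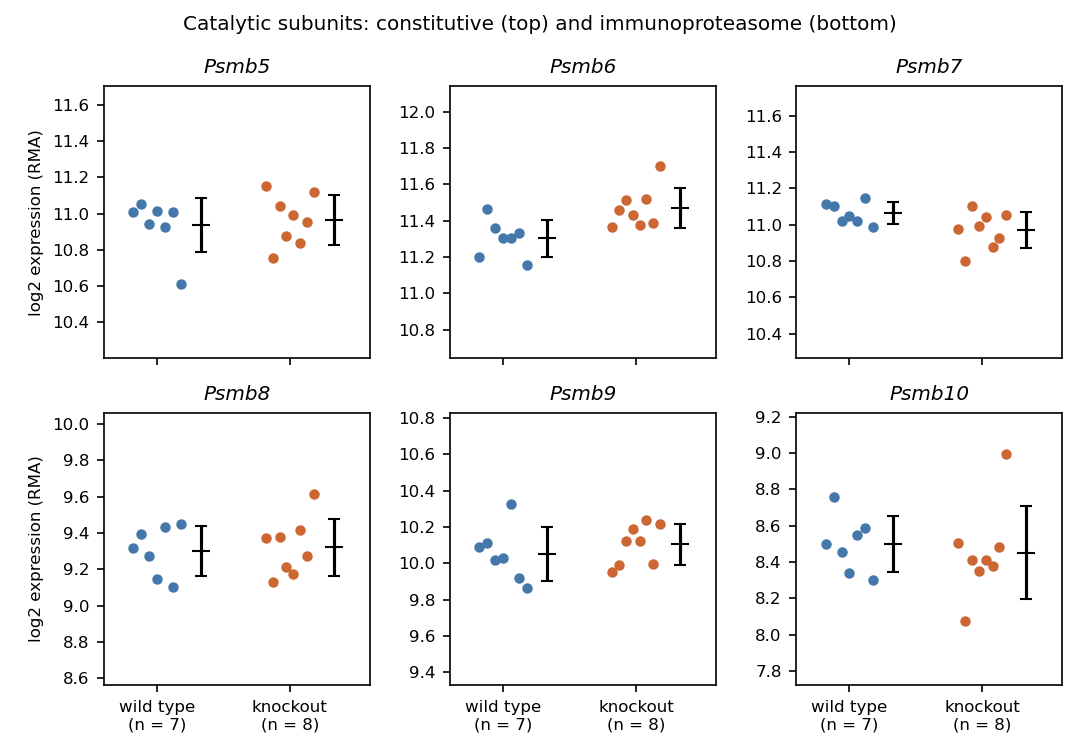
Log2 expression of the constitutive proteolytic subunits Psmb5, Psmb6 and Psmb7 and of the immunosubunits Psmb8, Psmb9 and Psmb10 in each array, wild type (n = 7) and knockout (n = 8), with the group mean and SD. Psmb6 is the gene whose knockout points sit highest against wild type, and the groups overlap in all 6 panels.

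The promoters of these genes except Psmb7, for which none was found, are from RefSeq on GRCm38.p6. They are shown because the constitutive and the induced subunits are known to be under different transcription factors. Each sequence spans 250 bases before to 50 bases after the gene's start, 5′ to 3′ on the gene's strand, and capitals mark a match to 1 of the motifs TGACNNNGC (the core that Nfe2l1 and Nfe2l2 bind with Maf partners), GAAANNGAA (bound by IRF proteins) or TTCNNNGAA (known as the interferon gamma activation sequence), searched on both strands. The positions are chr14:54617946-54618245 (minus strand) for Psmb5, chr11:70525107-70525406 (plus) for Psmb6, chr17:34197945-34198244 (plus) for Psmb8, chr17:34187281-34187580 (minus) for Psmb9 and chr8:105938343-105938642 (minus) for Psmb10.
Psmb5: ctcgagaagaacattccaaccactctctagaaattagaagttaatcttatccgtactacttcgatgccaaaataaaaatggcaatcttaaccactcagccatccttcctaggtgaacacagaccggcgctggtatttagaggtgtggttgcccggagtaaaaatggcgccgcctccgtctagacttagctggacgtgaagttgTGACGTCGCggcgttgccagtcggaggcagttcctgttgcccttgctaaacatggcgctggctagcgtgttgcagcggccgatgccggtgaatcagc
Psmb6: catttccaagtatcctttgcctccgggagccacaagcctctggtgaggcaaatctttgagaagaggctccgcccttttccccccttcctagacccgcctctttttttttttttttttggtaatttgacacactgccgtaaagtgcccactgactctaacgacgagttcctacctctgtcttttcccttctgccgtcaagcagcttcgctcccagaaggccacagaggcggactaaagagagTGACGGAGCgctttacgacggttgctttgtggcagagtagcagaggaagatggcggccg
Psmb8: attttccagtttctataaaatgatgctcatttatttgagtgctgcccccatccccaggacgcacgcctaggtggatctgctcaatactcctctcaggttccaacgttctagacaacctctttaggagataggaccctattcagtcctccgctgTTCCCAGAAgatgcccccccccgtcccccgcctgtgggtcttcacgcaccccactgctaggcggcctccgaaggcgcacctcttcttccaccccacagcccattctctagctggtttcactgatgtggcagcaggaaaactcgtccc
Psmb9: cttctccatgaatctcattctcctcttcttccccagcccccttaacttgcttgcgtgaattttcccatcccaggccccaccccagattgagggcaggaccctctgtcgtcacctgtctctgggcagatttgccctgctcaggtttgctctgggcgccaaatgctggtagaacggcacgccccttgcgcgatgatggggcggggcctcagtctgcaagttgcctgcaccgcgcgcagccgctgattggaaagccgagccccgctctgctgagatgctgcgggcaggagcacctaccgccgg
Psmb10: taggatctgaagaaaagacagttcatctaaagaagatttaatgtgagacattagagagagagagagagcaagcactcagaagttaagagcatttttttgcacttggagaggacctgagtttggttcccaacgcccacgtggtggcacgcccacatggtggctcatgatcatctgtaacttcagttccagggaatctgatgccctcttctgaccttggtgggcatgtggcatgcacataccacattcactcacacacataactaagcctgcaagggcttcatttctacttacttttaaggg

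Psmb5 and Psmb6 each held TGACNNNGC, with the first base at -47 and -9 from the start, and they were the only core genes with it among the 12 with a window. In the cap 3 of 17 genes held it (Psmc6, Psmd12 and Psmd9), and 12.4% of all 32851 promoter windows did. Psmb8 held TTCNNNGAA at -97, as 8.3% of all windows did, and no window of the 3 immunosubunits held GAAANNGAA, which 8.56% of all windows held. CCAAT, searched as well and not marked, was in 7 of the 12 core genes with a window, in 5 of 17 cap genes and in 37.4% of all windows. No marked match overlapped another. A match describes letters and not a bound site. Psmb6 and Psmb5 shared the first motif while their differences between genotypes were 0.17 and 0.03. Windows were found for 33 of the 40 genes. Among core genes Psma8, Psmb1, Psmb2 and Psmb7 had none and were not searched.

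The immunosubunits gave no difference beyond their spread. Psmb8 ran from 9.10 (median 9.32) to 9.45 in wild type and from 9.13 (median 9.32) to 9.62 in knockout, a difference of 0.02 with a 95% interval of -0.15 to 0.19. Psmb9, the brightest of them, ran from 9.86 (median 10.03) to 10.33 in wild type and from 9.95 (median 10.12) to 10.24 in knockout, a difference of 0.05 with an interval of -0.10 to 0.20. Psmb10, the dimmest, ran from 8.30 (median 8.50) to 8.76 in wild type and from 8.08 (median 8.41) to 8.99 in knockout, a difference of -0.05 with an interval of -0.27 to 0.18. In each gene the ranges overlapped, and for Psmb10 the wild-type range lay inside the wider knockout range. Limma's adjusted p was 0.960 for Psmb8, 0.875 for Psmb9 and 0.931 for Psmb10. Single mice moved these small values across 0: Psmb8 stood at -0.02 without knockout mouse 8 and at -0.01 without wild-type mouse 4 or 6, and Psmb10 at 0.01 without knockout mouse 2.

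Whether an immunosubunit shifted relative to the subunit it replaces was tested within each array by an exact two-sided permutation test over 6435 splits, adjusted over the 3 pairs. Psmb9 minus Psmb6 was lower in knockout by 0.11 (SE 0.07), with 7 of 8 knockout mice below the wild-type mean, and did not pass (exact p = 0.0979, adjusted 0.294). Without wild-type mouse 6 it was -0.14 with an exact unadjusted p of 0.0436, and the fits without 1 mouse ran from -0.141 to -0.0689. After quantile normalisation it was -0.08 (exact unadjusted p = 0.239), and without knockout mice 7 and 8 it was -0.09 (exact unadjusted p = 0.251). Psmb8 minus Psmb5 differed by -0.01 (SE 0.11, exact p = 0.936) and Psmb10 minus Psmb7 by 0.05 (SE 0.09, exact p = 0.668). The test reads unequal change of 2 probe sets, not which of them is the more abundant.

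Across mice Psmb10 followed Cd68, a lysosomal glycoprotein of macrophages, whatever the genotype. Over 15 arrays Pearson's r was 0.911 (permutation p = 2e-05 from 100000 resamples, adjusted 0.00024 over 12 pairs). Spearman's rho was 0.764 (permutation p = 0.0012, adjusted 0.0144). Pearson's r was 0.837 within wild type and 0.966 within knockout. Without wild-type mouse 2 and knockout mouse 8, the arrays farthest from the median of Cd68, r was 0.724. Without also wild-type mouse 4 and knockout mouse 2, each with the highest epididymis marker mean of its genotype, r was 0.498 over 11 arrays. Knockout mouse 2 also had the lowest Cd68 of the 15 arrays, 9.13, so leaving it out narrowed the range of Cd68. Among named genes 84 had a higher r with Cd68 than Psmb10. As a description, r of Psmb10 with the 13 macrophage markers had a median of 0.85 (range 0.51 to 0.93), with the 6 endothelial markers 0.67 and with the 6 epididymis markers -0.58. Without wild-type mouse 2 and knockout mouse 8 the macrophage median was 0.65 (range -0.22 to 0.86), the endothelial median 0.75 (range 0.39 to 0.91) and the epididymis median -0.80, so the order of the first pair of lists turned.

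**Figure D4:**
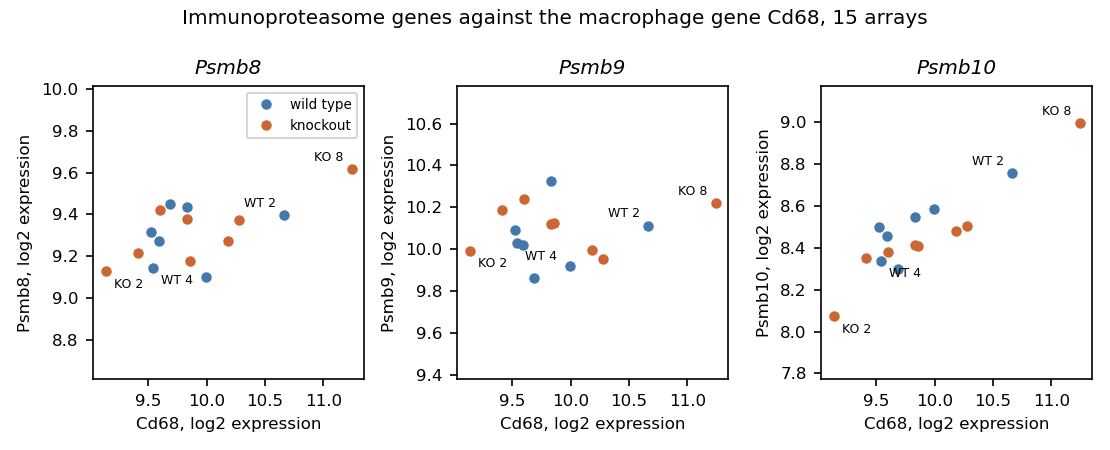
Log2 expression of Psmb8, Psmb9 and Psmb10 against that of Cd68 in 15 arrays, wild type in blue and knockout in orange, with the 4 arrays named in the text marked. Psmb10 rises with Cd68 along one line in both genotypes (r = 0.911), while Psmb9 shows no such relation (r = 0.155).

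The other immunosubunits followed Cd68 less. For Psmb8 r was 0.610 (permutation p = 0.0152, adjusted 0.0777), 0.250 without the same pair of mice, and rho was 0.389 (permutation p = 0.154, adjusted 0.308). For Psmb9 r was 0.155 (permutation p = 0.586, adjusted 0.639) and rho 0.03 (permutation p = 0.925). Nor did the immunosubunits track one another beyond the adjusted threshold: r was 0.589 for Psmb8 with Psmb10 (permutation p = 0.0194, adjusted 0.0777), 0.407 for Psmb8 with Psmb9 (permutation p = 0.132) and 0.335 for Psmb9 with Psmb10 (permutation p = 0.226). None of the 11 pairs other than Cd68 with Psmb10 passed an adjusted p of 0.05, including Irf1, an interferon-induced transcription factor, with each immunosubunit (r 0.522, 0.314 and 0.244). The Irf1 pairs were added after the values were seen. Psmb8 and Psmb9 lie side by side with Tap1 and Tap2 on chromosome 17, whereas Psmb10 lies on chromosome 8. In the cap the gene with the highest r was Psmc3, an ATPase, at 0.83 and 0.44 without the same pair of mice, named after its value was seen. Psmb5, the constitutive counterpart of Psmb8, had the highest r of the core, 0.61, and 0.55 without that pair. The list medians of r with Cd68 were 0.32 for the core (range -0.26 to 0.61), 0.21 for the cap (range -0.54 to 0.83) and 0.01 for all named genes.

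The 19S cap genes mostly differed by less than their spread. Psmd10, also called gankyrin, is an assembly chaperone of the ATPase ring, and had the largest difference of any member. It ran from 10.64 (median 10.80) to 10.87 in wild type and from 10.42 (median 10.60) to 10.73 in knockout. The difference was -0.18 (SE 0.06, 95% interval -0.30 to -0.05), with all 8 knockout mice below the wild-type mean and 5 below its minimum, and limma's adjusted p was 0.294. The groups overlapped, though the knockout mice lay mostly below. The other chaperones, Psmd5 and Psmd9, differed by 0.03 and -0.02.

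Among the 11 non-ATPase subunits 8 had a positive difference, with a median of 0.02. Psmd1, the large scaffold that receives ubiquitin receptors, ran from 11.15 (median 11.27) to 11.35 in wild type and from 11.03 (median 11.17) to 11.30 in knockout. Its difference was -0.11 (SE 0.05, limma's adjusted p = 0.510), with 7 of 8 knockout mice below the wild-type mean. Psmd7, the partner of the deubiquitinase Psmd14, differed by 0.06 (SE 0.05, limma's adjusted p = 0.784) and Psmd2, the other large scaffold, by -0.06 (SE 0.05, limma's adjusted p = 0.798). Psmd3 was the dimmest cap gene, at 7.96 ± 0.16 (SD, n = 7) and 7.99 ± 0.16 (SD, n = 8).

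Of the 6 ATPases 4 had a positive difference, with a median of 0.02. Psmc5, the brightest cap gene, ran from 11.73 (median 11.79) to 11.86 in wild type and from 11.77 (median 11.87) to 11.91 in knockout, a difference of 0.06 (SE 0.04, limma's adjusted p = 0.738) that became -0.01 after quantile normalisation. Psmc1 differed by -0.07 (SE 0.06, limma's adjusted p = 0.791) on its brightest probe set and by 0.13 (SE 0.06, limma's adjusted p = 0.493) on the other, so its direction depends on the probe set. Psmc3ip, a recombination factor of meiosis that binds Psmc3, differed by 0.10 (SE 0.09, limma's adjusted p = 0.809) and stands outside the 3 groups.

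Most core and cap genes varied little between mice. The median within-genotype SD was 0.085 in the core, 0.098 in the cap and 0.148 in the immunoproteasome, against 0.163 over all named genes and 0.138 over the 4985 brightest. Psma6 had the lowest SD of the members, 0.041, and Psmb10 was at 0.215. With genotype means removed, the median correlation across the 15 arrays was 0.30 between pairs of core genes (91 pairs, tissue-restricted genes left out), 0.34 between cap genes (190 pairs) and 0.31 between core and cap (280 pairs). Between the immunosubunits themselves it was 0.40 (3 pairs, range 0.37 to 0.60). It was 0.14 between immunosubunits and core and 0.12 between immunosubunits and cap, against 0.15 between the 4985 brightest genes and 0.01 between all named genes. All these pairs share arrays and their scaling. The mean of the 16 core genes spanned 10.52 to 10.65 in wild type and 10.55 to 10.73 in knockout, with its peak in knockout mouse 3. The cap mean was also highest in that mouse among knockouts, and the immunoproteasome mean was highest in knockout mouse 8, the mouse with the highest macrophage mean, and lowest in knockout mouse 2.

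**Figure D5:**
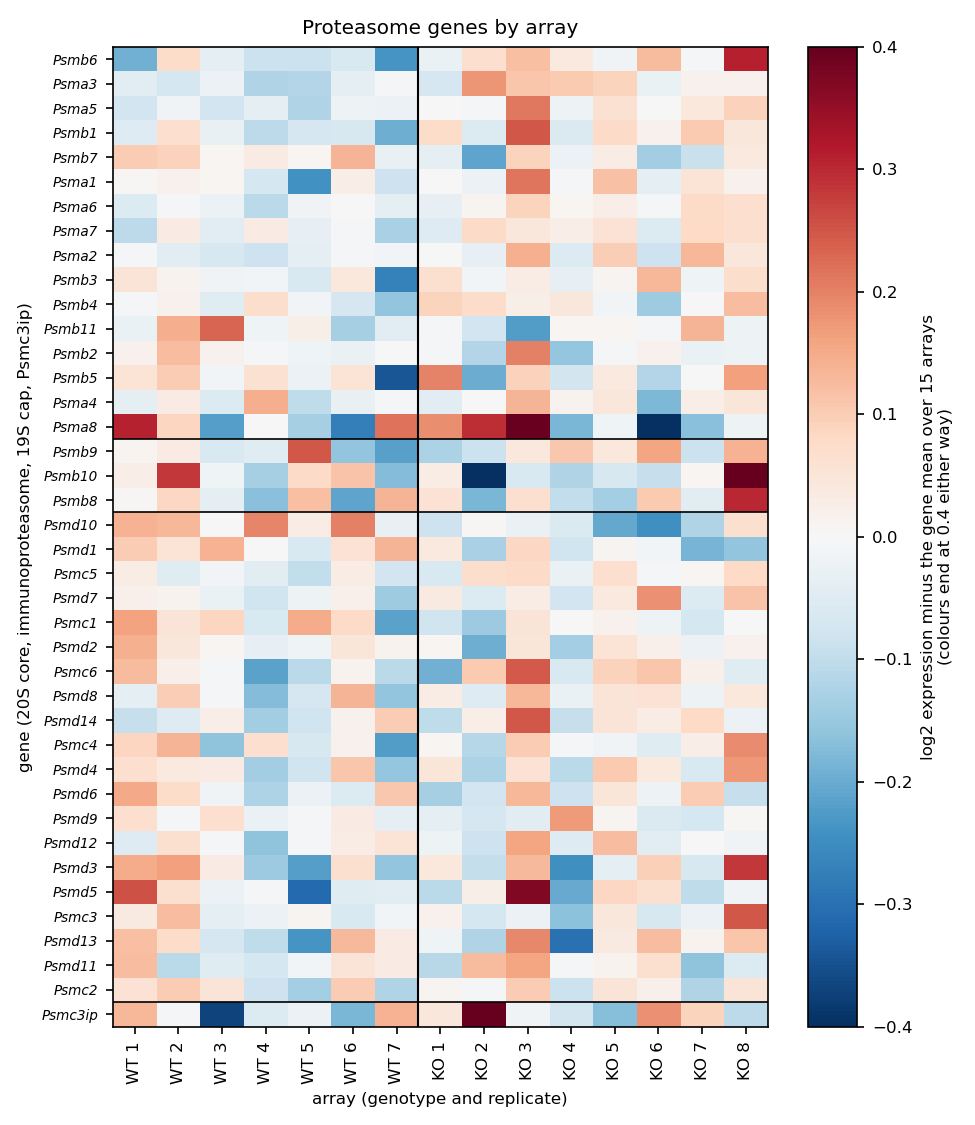
Each member's log2 expression in each array minus the gene's mean over the 15 arrays, with genes as rows by group and arrays as columns by genotype, and colours ending at 0.4 in either direction. Most core and cap rows are pale, and the immunosubunit Psmb10 is high in wild-type mouse 2 and knockout mouse 8 and low in knockout mouse 2.

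Genes that act with the proteasome gave no difference past limma's adjusted threshold in any of the 7 lists. Of 4 activators, which open the core in place of the cap, 2 were positive, with Psme2 at 0.11 (SE 0.08, limma's adjusted p = 0.735) and Psme1 at -0.05 (SE 0.06, limma's adjusted p = 0.846). Of 5 assembly factors 3 were positive, with Psmg4 at 0.09 and Psmg2 at -0.11. Of 4 regulators 1 was positive, Nfe2l2 at 0.05, and Psmf1, an inhibitor of the core, was at -0.08. Nfe2l1, named after its value was seen, was at -0.05 (SE 0.07, limma's adjusted p = 0.887).

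Of 6 ubiquitin receptors and deubiquitinases 5 were positive, and 1 (Sem1) was higher at an unadjusted p under 0.05. Sem1, a small subunit of the cap whose symbol lies outside the Psm naming, was at 12.04 ± 0.06 (SD, n = 7) and 12.16 ± 0.07 (SD, n = 8), a difference of 0.11 (SE 0.05, limma's adjusted p = 0.424), with 8 of 8 knockout mice above the wild-type mean. Ubqln1, a shuttle for ubiquitinated proteins, was at -0.10. Of 3 measured genes of the ubiquitin and p97 list 1 was positive, with Vcp, the p97 unfoldase, at 0.02 and its cofactor Nploc4 at -0.07.

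Of 8 MHC class I presentation genes 6 were positive, against 44.8% of named genes and 57.6% of the 1994 brightest. At an unadjusted p under 0.05, 2 of the 8 were higher. So were 2.3% of named genes, 4.94% of all probe sets and 144 of the 1994 brightest named genes. Pdia3, a disulphide isomerase of the peptide-loading complex, differed by 0.19 (SE 0.07, limma's adjusted p = 0.314), with 8 of 8 knockout mice above the wild-type mean, and by 0.126 after quantile normalisation. B2m, the light chain of class I molecules, differed by 0.13 (SE 0.05, limma's adjusted p = 0.410), with 7 of 8 above, and by 0.0674 after quantile normalisation. Of 13 interferon response genes 6 were positive and 7 negative, and 2 were lower at an unadjusted p under 0.05, as 4.39% of named genes and 5.03% of all probe sets were. Ifit3, an antiviral gene, differed by -0.35 (SE 0.13, limma's adjusted p = 0.385) and its neighbour Ifit1 by -0.30 (SE 0.12, limma's adjusted p = 0.419). Beside these, 13 of 13 macrophage, 7 of 7 mesothelial (median 0.41) and 6 of 6 epididymis markers (median 0.92) had a positive difference. So did 5 of 7 adipocyte, 5 of 10 T and NK cell and 2 of 3 B cell markers, while 6 of 6 endothelial markers had a negative one. At an unadjusted p under 0.05, 4 mesothelial, 1 adipocyte and 1 T and NK cell marker were higher, as 2.3% of named genes were. The epididymis list mean had a median of 6.12 in wild type and 6.41 in knockout, with knockout mouse 2 at 11.66. No marker passed limma's adjusted p of 0.05, and their part in the values of the proteasome genes was not tested.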

How the data were processed

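Gonadal fat of 15 mice was measured on Affymetrix mouse gene arrays. The deposited values are log2 expression from RMA, made by the authors with affy 1.18, with Expression Console 1.1.2800.19935 also named, per the submitters' processing notes. Probe positions are not used here. Of 35557 probe sets 21789 carry 1 symbol, 1621 several and 12147 none, and 21698 gene identifiers matched RefSeq. The whole table was fitted with limma 3.58.1 in R 4.3.3 (lmFit, eBayes, genotype as the only term), with Benjamini-Hochberg adjustment over all probe sets, two-sided, after a check on simulated data. Lists are described by counts and medians, without a set test. Permutation tests were run in Python 3.11.15, with 100000 resamples for correlations, and SciPy 1.17.1 gave the ranks and the adjustment over pairs. The number of arrays limits precision. Members and gene lists were chosen with earlier results of these data known. Genes named are Psmb5 to Psmb10, the lowest p-values among the other core genes (4), the cap (6) and each pathway list (2), members at an unadjusted p under 0.05, the brightest and dimmest of each group, Psmc3ip, Psma8, Psmb11 and Sfrp5. Alternatives were median centring, quantile normalisation, array weights, a trended prior, a filter on dim probe sets (33rd percentile), the mean of probe sets, a replicate block, and sets of arrays left out.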

Additional observations from a re-analysis of the deposited data

Results flagged for a closer look

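In 7 of 80 groups examined (40 genes in 2 genotypes) the highest or lowest mouse stood apart from the others by more than Dixon's 95% limit for the group's size, and chance flags about 1 in 20 groups. On the high side, knockout mouse 8 was at 11.70 for Psmb6, with the next mouse at 11.52, and at 8.99 for Psmb10, with the next at 8.50. Wild-type mouse 2 was at 10.65 for Psmb2, a beta-ring subunit, with the next at 10.55, and knockout mouse 4 was at 8.37 for Psmd9, with the next at 8.21. On the low side, wild-type mouse 7 was at 10.61 for Psmb5, with the next at 10.93, and at 9.46 for Psmb3, also of the beta ring, with the next at 9.67. Wild-type mouse 5 was at 11.02 for Psma1, with the next at 11.18. Knockout mouse 8 and wild-type mouse 2 had the highest macrophage marker means of their groups.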

How the results depend on the processing

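The count of 0 members past an adjusted p of 0.05 held under all alternatives. Quantile normalisation gave a core median of 0.0022 with 8 core genes positive, 0 members higher and 4 lower at an unadjusted p under 0.05, Psmb5 at -0.0237, Psmc5 at -0.0083, Vcp at -0.0286 and Psmb8 minus Psmb5 at 0.0302. Members at an unadjusted p under 0.05 numbered 3 with median centring and 3 without knockout mice 7 and 8. With those mice as the only knockouts (their description numbers lie among the wild-type ones, with meaning not stated) there was 1, Psmb10 was at 0.24, Vcp at -0.0236 and Psmb8 minus Psmb5 at 0.0422. Immunosubunits with a positive difference numbered 1 with array weights (Psmb8 -0.0070), 1 without wild-type 2 and knockout 8 (Psmb8 -0.0063) and 1 without knockout 7 and 8 (Psmb8 -0.0206, Psmb10 minus Psmb7 -0.044). The mean of probe sets gave Psmc1 0.0305. Replicate numbers do not pair the mice: of 7 same-numbered pairs 3 had a correlation of deviations over 0.1 (range -0.12 to 0.25) and 0 matched best with its own number. The replicate block gave 2 members at an unadjusted p under 0.05, 1 immunosubunit positive, Psmb8 at -0.0221 and Psmb10 minus Psmb7 at -0.0203. Limma's adjusted p of Sfrp5 was 0.30 with that block, 0.119 without wild-type 4 and knockout 2, 0.0627 without wild-type 2 and knockout 8, and 0.316 with knockout 7 and 8 alone. Leaving out 1 mouse at a time gave 3 to 5 members at an unadjusted p under 0.05, 1 to 3 immunosubunits positive, 8 (without knockout 3) to 14 cap genes positive, Psmb5 from -0.0264 to 0.0582, Psmb8 from -0.0221 to 0.0472 and Psmb10 from -0.124 to 0.0068. The same fits gave Psmb8 minus Psmb5 from -0.0536 to 0.0706, Psmb9 minus Psmb6 from -0.141 to -0.0689 and Psmb10 minus Psmb7 from -0.0203 to 0.0815. The cause of these moves was not tested.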
